A study of Homo sapiens with 16 samples.

Results

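The genes described here are 4 subunits of the transcription factor NF-kB (NFKB1, NFKB2, RELA and RELB), 2 of its cytoplasmic inhibitors (NFKBIA and NFKBIE), 3 genes whose products edit or bind ubiquitin chains in the same pathway (TNFAIP3, TNIP1 and BIRC3) and the adhesion molecule gene ICAM1, a classical NF-kB target. They were chosen by their symbols and make up 10 of the 23228 gene rows of each count file. Gene expression was measured by RNA-seq in MDA-MB-231, an established line of triple-negative breast cancer cells with a mesenchymal character, grown in DMEM with 10% fetal bovine serum. The 16 libraries of total RNA, made with the TruSeq protocol from sub-confluent dishes, formed 8 groups of 2. Cells received the vehicle DMSO, MMS (methyl methanesulfonate, an alkylating agent that methylates DNA bases), 1 µM sorafenib (an inhibitor of RAF and receptor tyrosine kinases), or sorafenib for 12 h and then MMS, and were harvested at 8 h or 24 h. In the combination the hours were counted from MMS, so that its cells had spent 12 h longer in sorafenib than the cells given sorafenib alone. For MMS the submitters give a dose of 40 µg/mL in their design text but 40 µM in the labels of the samples. The series title names inflammation and angiogenesis as its subject, and the comparisons ask what MMS changed, what low-dose sorafenib changed, and whether sorafenib altered the response to MMS.

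NF-kB proteins bind DNA as dimers of RELA, RELB, REL and the processed products of NFKB1 (p50) and NFKB2 (p52). In resting cells the IkB proteins, IkB-alpha from NFKBIA and IkB-epsilon from NFKBIE, hold the dimers in the cytoplasm until the IKK kinase complex marks the inhibitors for degradation. Nuclear NF-kB then switches on genes that stop the signal, among them NFKBIA itself, the deubiquitinase gene TNFAIP3 (A20) and its partner TNIP1 (ABIN1), together with effectors such as BIRC3 (cIAP2, a ubiquitin ligase that restrains cell death) and ICAM1 (a ligand of leukocyte integrins). MDA-MB-231 cells are known for high constitutive NF-kB activity.

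Upstream sequences are shown for the 4 genes whose RNA fell most often with MMS and whose windows held a match to the kB motif, the DNA element that NF-kB dimers bind. RefSeq windows of 300 bases (250 before and 50 after the start, build GRCh38.p14, a later build than the hg19 of the counts) were found for 8 of the 10 genes, and not for RELB and NFKBIE. The kB motif was searched on both strands, overlaps counted, and matched in 6 of these 8 genes (NFKB1, NFKB2, NFKBIA, TNFAIP3, TNIP1 and BIRC3), against 13.3% of all 27305 genes with a window and 11.3% of 35116 windows. A looser pattern that contains the kB motif (3 G, any 5 bases, 2 C) was in 8 of the 8 genes and in 61.7% of all genes. The 6 genes with a match are textbook NF-kB targets, so the counts describe them and test nothing. RELA and the classical target ICAM1 held no match to the kB motif in their windows. The lines give the 250 bases before the start, 5′ to 3′ along the gene's strand, with the kB matches in capitals.
NFKBIA (chr14:35404750-35404999, minus strand): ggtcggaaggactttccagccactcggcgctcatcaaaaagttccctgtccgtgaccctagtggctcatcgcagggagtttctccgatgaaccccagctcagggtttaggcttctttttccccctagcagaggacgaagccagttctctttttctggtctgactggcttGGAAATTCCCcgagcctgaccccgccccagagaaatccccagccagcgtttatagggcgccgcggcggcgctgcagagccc
BIRC3 (chr11:102317234-102317483, plus strand): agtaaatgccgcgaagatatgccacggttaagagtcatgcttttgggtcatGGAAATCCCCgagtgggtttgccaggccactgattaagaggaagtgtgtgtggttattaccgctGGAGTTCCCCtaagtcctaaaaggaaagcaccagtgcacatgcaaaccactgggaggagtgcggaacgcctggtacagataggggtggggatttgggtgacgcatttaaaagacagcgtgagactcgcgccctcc
TNFAIP3 (chr6:137867009-137867258, plus strand): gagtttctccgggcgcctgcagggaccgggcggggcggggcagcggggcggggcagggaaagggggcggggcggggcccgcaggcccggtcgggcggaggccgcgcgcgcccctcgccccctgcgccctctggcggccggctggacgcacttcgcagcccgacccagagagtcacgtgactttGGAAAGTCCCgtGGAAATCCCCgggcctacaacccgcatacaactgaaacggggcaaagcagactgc
TNIP1, the second of 2 windows (chr5:151081035-151081284, minus strand): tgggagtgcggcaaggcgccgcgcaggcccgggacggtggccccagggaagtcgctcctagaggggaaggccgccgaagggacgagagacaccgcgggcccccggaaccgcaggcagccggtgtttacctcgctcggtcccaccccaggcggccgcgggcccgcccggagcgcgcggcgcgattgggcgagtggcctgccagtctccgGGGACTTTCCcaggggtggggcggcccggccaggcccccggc
The match of NFKBIA began 81 bases before the start and read GGGAATTTCC on the opposite strand. TNFAIP3 had a pair of matches, 67 and 55 bases before the start, and BIRC3 a pair at 199 and 135 bases, all 4 on the opposite strand. The TNIP1 match GGGACTTTCC lay 42 bases before the start on the gene's own strand.

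Counts assigned to genes ran from 16774156 to 26448212 per library (median 20348720), and levels are given as CPM, the usual scaling of a gene's count by this total. The cell line matched its label: VIM, CD44, EGFR and AXL had their lowest values at 1480, 608, 231 and 784 CPM, the oestrogen and progesterone receptor genes ESR1 and PGR stayed at or below 0.224 and 0.674 CPM, and the lymphocyte gene MS4A1 was at 0 in all 16 libraries, although GATA3 and CDH1 (E-cadherin), which were expected near 0, reached 10.7 and 9.34 CPM. The summed level of the 7 line markers was 5520 to 6160 CPM in the libraries without MMS and 4210 to 4730 CPM in those with it, that of 6 immune genes, nearly all CD68, was 91.6 to 178 CPM over all groups, and that of 5 epithelial genes was 13.9 to 18.9 CPM with sorafenib alone against 8.92 to 10.9 CPM with DMSO. That of 3 endothelial genes was 2.91 to 8.16 CPM with DMSO and 0.927 to 1.42 CPM with MMS, and that of 3 fibroblast genes, nearly all COL1A1, was 8.69 to 9.66 CPM with DMSO and 5.41 to 5.44 CPM with MMS at 8 h, and 13.2 to 14 CPM and 8.92 to 11.6 CPM at 24 h. The part of these shifts in the results was not tested. Library titles begin with MDA231 or MDAMB231, 1 of each per group, and libraries with the same beginning deviated from their group means together, so that a fit with this beginning as a block was run beside the main fit and is called the blocked fit. NFKBIE was higher in the MDAMB231 library of 8 of 8 groups, by a median log2 difference of 0.47, NFKB2 likewise in 8 of 8 groups (0.15), and ICAM1 was lower in 8 of 8 (-0.17). Annotated genes that are not rows of the count files overlap RELA (a lincRNA), TNFAIP3 and ICAM1 (antisense genes) on the opposite strand, and since the strand setting of the counting is not given in the sources used here their reads cannot be told apart. In these bulk libraries, fewer cells that express a gene and less of its RNA per cell cannot be told apart.

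MMS lowered the RNA of 5 of the 10 genes and raised that of RELA at 8 h, and it lowered 4 and raised RELA again at 24 h. The 5 that fell at 8 h were BIRC3, NFKBIA, TNFAIP3, TNIP1 and ICAM1. In the edgeR quasi-likelihood test with Benjamini-Hochberg adjustment over 13948 genes, 12.0% of all genes were lower at 8 h and 14.5% were higher. At 24 h, when TNFAIP3 was no longer past the threshold, 16.3% of all genes were lower and 15.2% were higher. The median log2 change of the 10 genes was -0.50 at 8 h and -0.09 at 24 h, against 0.00 for all genes at either time. In the blocked fit 7 of the 10 were lower at 8 h, where that fit called 20.9% of all genes lower, and 2 were higher (22.4% of all genes). At 24 h it called 4 lower (25.2% of all genes) and 2 higher (23.0%). DESeq2 called 6 lower at 8 h (13.5% of its genes), NFKB1 being the sixth.

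**Figure D1:**
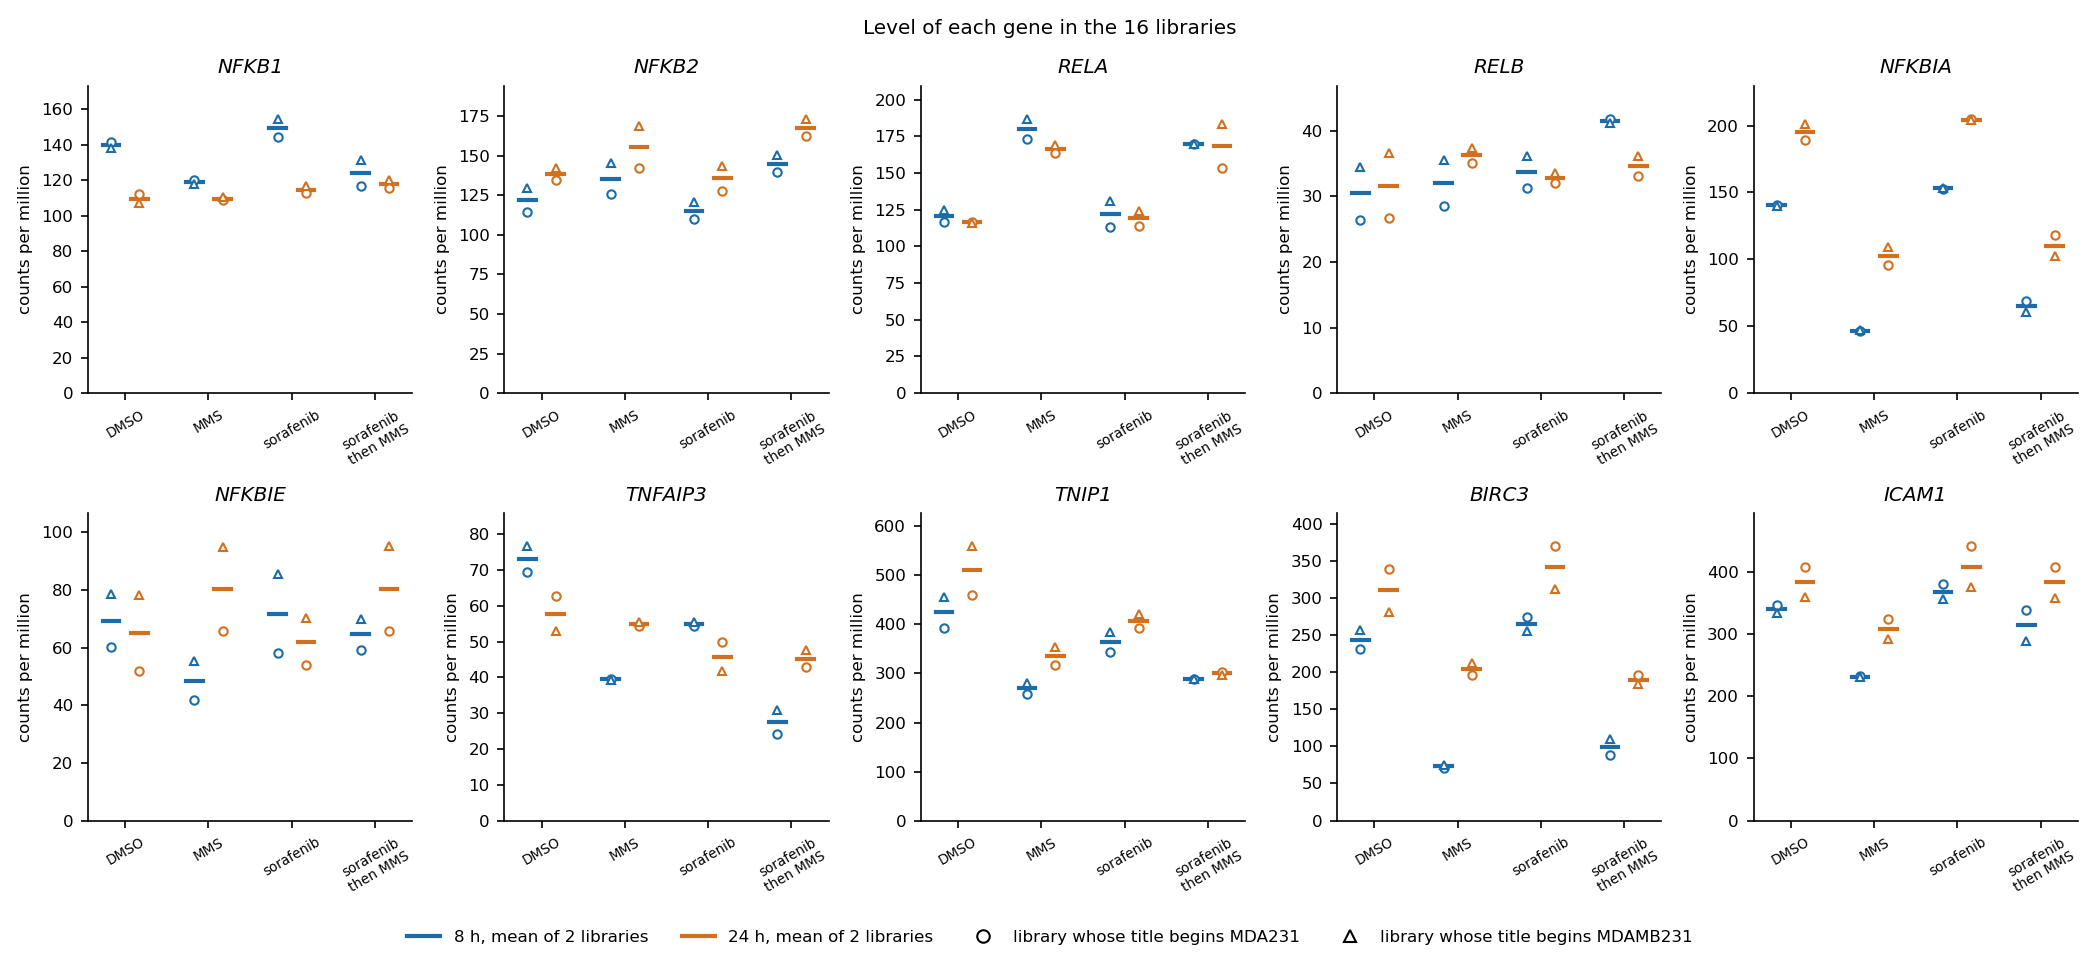
Level of each of the 10 genes in CPM (vertical axis, from 0) in the 4 treatments (horizontal axis), at 8 h in blue and 24 h in orange; symbols are the libraries by the beginning of their title and bars are means of 2. NFKBIA falls from 141 and 139.8 CPM with DMSO to 46.2 and 47.2 CPM with MMS at 8 h, BIRC3 and TNFAIP3 fall alongside, and RELA is higher in all 8 libraries that received MMS than in all 8 that did not.

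Among the subunits, RELA, which carries the main transactivation domain of the canonical dimer, was the one called higher with MMS in the main fit. At 8 h it stood at 116 and 124 CPM with DMSO and 173 and 187 CPM with MMS, and at 24 h at 116 and 116 CPM and 163 and 169 CPM. The groups did not overlap at either time, and the log2 change was 0.62 ± 0.09 at 8 h (SE; edgeR adjusted p = 0.000424), or 1.53-fold, and 0.46 ± 0.09 at 24 h (adjusted p = 0.00288). Over the 8 groups the 4 with MMS held the 4 highest means of RELA, from 166 to 179.9 CPM, and the 4 without MMS lay between 116 and 122 CPM. Neighbours within either set of 4 overlapped, except that the MMS libraries at 8 h lay above those of the combination at 8 h.

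NFKB1, the precursor of p50, was not called with MMS in the main fit at either time. Its libraries held 141 and 138 CPM with DMSO and 119.9 and 118 CPM with MMS at 8 h, and 112 and 107 CPM and 109 and 110.3 CPM at 24 h. The groups were apart at 8 h (log2 change -0.20 ± 0.08), which did not pass in the main fit (edgeR adjusted p = 0.0722) and passed in the blocked fit (adjusted p = 0.0348) and in DESeq2 (adjusted p = 0.0397). At 24 h they overlapped (adjusted p = 0.639). In the DMSO cells NFKB1 fell between 8 h and 24 h by 0.38 on the log2 scale (SE 0.08, edgeR adjusted p = 0.0468), a call lost without any 1 of the 4 DMSO libraries (adjusted p from 0.0893 to 0.251).

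NFKB2, the precursor of p52 in the non-canonical arm, stood at 114 and 129 CPM with DMSO and 126 and 145 CPM with MMS at 8 h, and at 135 and 142 CPM and 142 and 169 CPM at 24 h. The groups overlapped at 8 h, where only the blocked fit passed (log2 change 0.19 ± 0.10, adjusted p = 0.191 and 0.0239 in the blocked fit), and at 24 h they were narrowly apart without passing in either fit (adjusted p = 0.419 and 0.166). RELB, the partner of p52, was measured at 26.4 and 34.5 CPM with DMSO and 28.6 and 35.5 CPM with MMS at 8 h and at 26.8 and 36.6 CPM and 35.2 and 37.4 CPM at 24 h. The RELB libraries overlapped at both times (adjusted p = 0.671 and 0.522). Between libraries with the same title beginning, with MMS against without it, NFKB2 was higher in 8 of 8 pairs (log2 ratios of CPM from 0.08 to 0.35) and RELB in 8 of 8 (0.03 to 0.42), as RELA was (0.37 to 0.59) and as 19.4% of the genes tested were.

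NFKBIA, which encodes the inhibitor IkB-alpha, fell with MMS at both times. The DMSO libraries had 141 and 139.8 CPM at 8 h and the MMS libraries 46.2 and 47.2 CPM, a 2.93-fold decrease (log2 change -1.55 ± 0.09, edgeR adjusted p = 1.03e-06). At 24 h the values were 189 and 201 CPM with DMSO and 95.8 and 109 CPM with MMS, a 1.98-fold decrease (log2 change -0.98 ± 0.09, adjusted p = 2.41e-05). No MMS library overlapped a DMSO library of its time. The 8 group means spanned 4.38-fold, in the order sorafenib 24 h, DMSO 24 h, sorafenib 8 h, DMSO 8 h, combination 24 h, MMS 24 h, combination 8 h and MMS 8 h, and the only neighbours whose libraries overlapped were the combination and MMS at 24 h.

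NFKBIE, which encodes the inhibitor IkB-epsilon, stood at 60.1 and 78.5 CPM with DMSO and 41.7 and 55.3 CPM with MMS at 8 h. Its 24 h libraries held 51.9 and 78.3 CPM with DMSO and 65.9 and 94.8 CPM with MMS. The second value of each pair is the MDAMB231 library, and the distance between the 2 libraries of a group was larger than that between the treatment means at 24 h. The log2 change at 8 h was -0.48 ± 0.27 (edgeR adjusted p = 0.218) and passed in the blocked fit (adjusted p = 0.000151). At 24 h the estimate had the other sign, 0.25 ± 0.27 (adjusted p = 0.514, and 0.0183 in the blocked fit), and it was -0.01 without the first DMSO library of that time.

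TNFAIP3, whose product A20 removes and builds ubiquitin chains on signalling adaptors, fell at 8 h. At 8 h its libraries held 69.3 and 76.6 CPM with DMSO and 39.5 and 39.4 CPM with MMS, and the log2 change was -0.85 ± 0.13 (edgeR adjusted p = 0.000373). At 24 h they held 62.6 and 52.9 CPM and 54.4 and 55.4 CPM, with overlapping groups (adjusted p = 0.479).

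TNIP1, the A20-binding partner, was lower at both times. Its values were 392 and 457 CPM with DMSO and 259 and 280.5 CPM with MMS at 8 h, and 461 and 559 CPM and 317 and 353 CPM at 24 h. The groups were apart at both times, with log2 changes of -0.62 ± 0.10 (edgeR adjusted p = 0.000648) and -0.66 ± 0.10 (adjusted p = 0.000491). Over the 8 groups the 4 with MMS held the 4 lowest means.

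BIRC3 (cIAP2) had the largest decrease of the 10 genes at 8 h. Its libraries held 231 and 257 CPM with DMSO and 71 and 75.3 CPM with MMS, a 3.25-fold decrease (log2 change -1.70 ± 0.13, edgeR adjusted p = 3.65e-06). At 24 h the values were 339.8 and 281 CPM and 197 and 213 CPM, a 1.57-fold decrease (log2 change -0.65 ± 0.12, adjusted p = 0.00213). The groups were apart at both times, and the 8 group means spanned 4.66-fold with the 4 MMS groups lowest.

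ICAM1, the adhesion molecule, was lower with MMS at both times. It stood at 347 and 334 CPM with DMSO and 232 and 230.4 CPM with MMS at 8 h, and at 408 and 359 CPM and 323 and 292 CPM at 24 h. The groups were apart at both times, with log2 changes of -0.52 ± 0.12 (edgeR adjusted p = 0.00557) and -0.37 ± 0.12 (adjusted p = 0.0295). Without the first DMSO library the 8 h call was lost (adjusted p = 0.0505). The 24 h call was lost without the first DMSO library (log2 change -0.27, adjusted p = 0.183), without the first MMS library (-0.45, adjusted p = 0.0629) and without the second MMS library (-0.25, adjusted p = 0.258).

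The decrease with MMS was smaller at 24 h than at 8 h for 3 genes, and this difference was itself tested, with 3.53% of all genes called in that direction. The MMS effect at 24 h minus that at 8 h was 1.05 ± 0.18 on the log2 scale for BIRC3 (edgeR adjusted p = 0.00411), 0.72 ± 0.18 for TNFAIP3 (adjusted p = 0.0253) and 0.57 ± 0.12 for NFKBIA (adjusted p = 0.0145). TNIP1, RELA and ICAM1, which were called at both times, had differences of effect that did not pass (adjusted p = 0.894, 0.528 and 0.636). For NFKBIE the difference was 0.73 ± 0.38 and passed only in the blocked fit (adjusted p = 0.264, 0.000209 with the block), which called 11.0% of all genes in that direction. BIRC3 remained called without each library in turn. NFKBIA was lost without the first MMS library at 8 h (adjusted p = 0.0501), and TNFAIP3 without 6 of the 8 libraries (either DMSO or either MMS library at 8 h, the first MMS or the second DMSO library at 24 h), with adjusted p from 0.0523 to 0.0761.

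The vehicle cells, which both effects share at each time, also changed between the times. Between 8 h and 24 h in DMSO, NFKBIA rose by 0.45 ± 0.09 on the log2 scale (edgeR adjusted p = 0.0438) and NFKB1 fell, in a comparison where 0.366% of all genes were higher and 0.294% lower. BIRC3 had a log2 difference of 0.32 ± 0.12 (adjusted p = 0.23), and TNFAIP3 one of -0.37 ± 0.12 (adjusted p = 0.179, 0.0335 with the block). TNIP1 had 0.24 ± 0.10 (adjusted p = 0.258, 0.0359 with the block). The block called 7.21% of all genes higher and 6.42% lower here. The calls of NFKBIA and NFKB1 were both lost without any 1 of the 4 DMSO libraries, with adjusted p of 0.0834 to 0.313 for NFKBIA and 0.051 to 0.347 for NFKB1 over the alternatives that lost them.

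**Figure D2:**
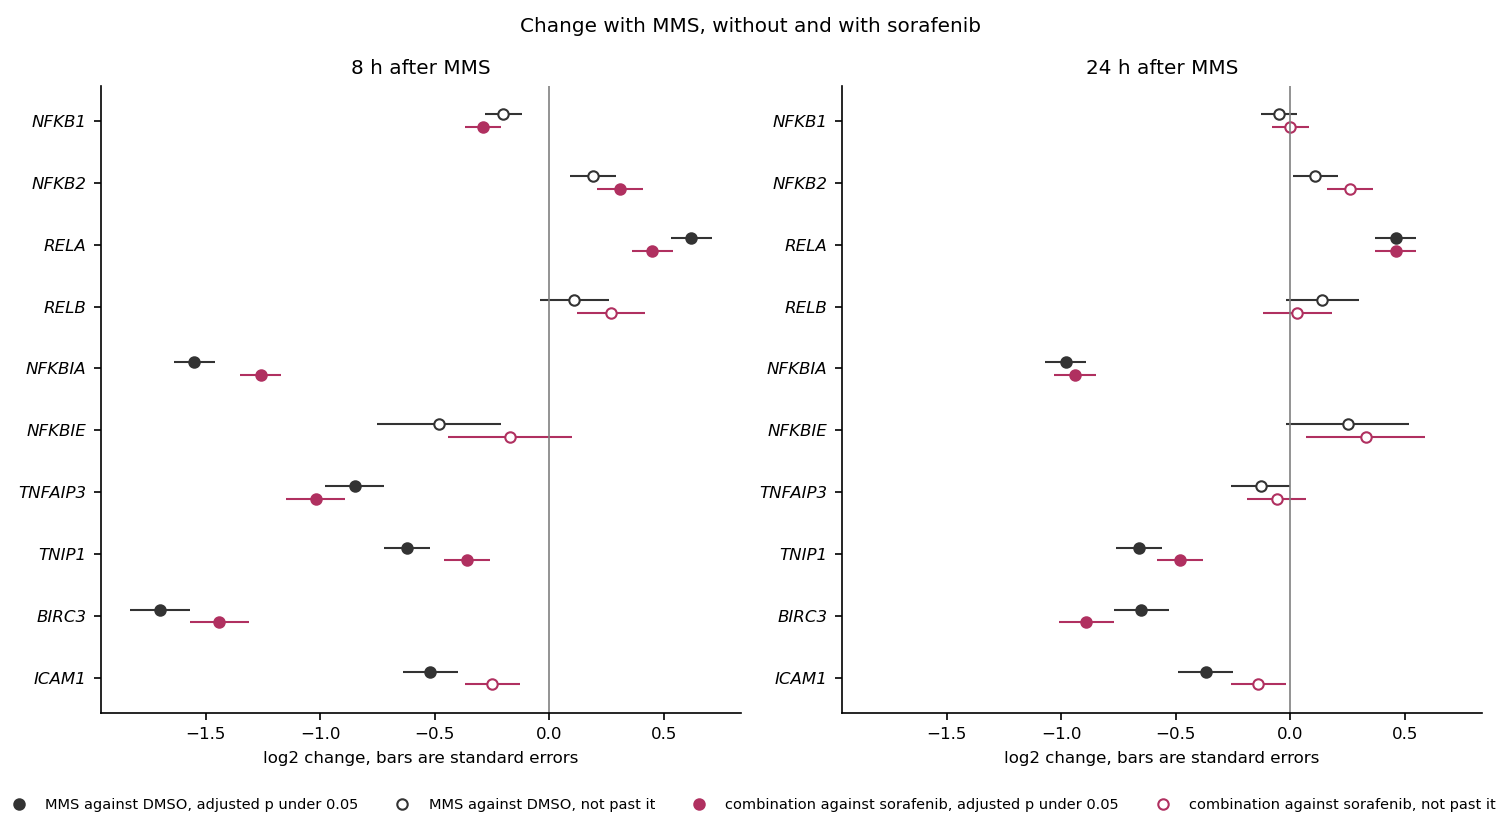
Change with MMS on the log2 scale (horizontal axis) for each gene (vertical axis) at 8 h (left) and 24 h (right), in cells without sorafenib (black) and with it (red); bars are standard errors and filled points passed the test. RELA lies to the right of 0 in all 4 comparisons, NFKBIA, BIRC3 and TNIP1 to the left in all 4, and TNFAIP3 only at 8 h past the threshold. The red changes also include 12 h longer in sorafenib for the cells given MMS.

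In cells first given sorafenib for 12 h, MMS was followed by lower NFKBIA, BIRC3, TNFAIP3 and TNIP1 RNA and by higher RELA RNA as well. The cells of the combination had also spent 12 h longer in sorafenib than those given it alone. The comparisons at 8 h and 24 h cannot tell that difference apart from MMS. Against sorafenib alone at 8 h, the combination lowered 5 genes (11.6% of all genes were lower) and raised 2 (13.0% were higher). NFKBIA went from 152 and 154 CPM to 69 and 61 CPM, a log2 change of -1.26 ± 0.09 (edgeR adjusted p = 3.6e-06). BIRC3 went from 274 and 256 CPM to 88.3 and 110.3 CPM (-1.44 ± 0.13, adjusted p = 1.47e-05), and TNFAIP3 from 54.5 and 55.4 CPM to 24.3 and 30.9 CPM (-1.02 ± 0.13, adjusted p = 0.000162). The libraries of these 3 genes did not overlap. TNIP1 (-0.36 ± 0.10, adjusted p = 0.0183) and NFKB1 (-0.29 ± 0.08, adjusted p = 0.0134) were the other 2 that fell. RELA rose from 113 and 131 CPM to 169.7 and 170.1 CPM (0.45 ± 0.09, adjusted p = 0.00385). NFKB2 rose from 109.8 and 121 CPM to 139.8 and 150.5 CPM (0.31 ± 0.10, adjusted p = 0.0412).

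Of these 7 calls, those of NFKBIA, BIRC3 and TNFAIP3 held in each alternative run. RELA was lost without the first sorafenib library (adjusted p = 0.0534), and NFKB2 without each of the 4 libraries compared (adjusted p from 0.0633 to 0.24). TNIP1 was lost without either combination library (adjusted p = 0.0528 and 0.0612) or without the second sorafenib library (0.135), and NFKB1 without the first combination library (0.0789) or the second sorafenib library (0.101). ICAM1, at 379.9 and 356 CPM with sorafenib and 339 and 289 CPM with the combination, passed only with the block (-0.25 ± 0.12, adjusted p = 0.138 and 0.00478). RELB, at 31.3 and 36.2 CPM and 41.8 and 41.2 CPM, was likewise past the threshold only with the block, as higher (0.27 ± 0.15, adjusted p = 0.235 and 0.0433). The blocked fit called 19.1% of all genes lower and 20.6% higher in this comparison.

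At 24 h the combination lowered 3 genes against sorafenib alone (18.8% of all genes were lower) and raised RELA (18.0% were higher). NFKBIA went from 205 and 204 CPM to 118 and 102 CPM (-0.94 ± 0.09, edgeR adjusted p = 2.4e-05), BIRC3 from 369.7 and 313 CPM to 196 and 185 CPM (-0.89 ± 0.12, adjusted p = 0.000246), and TNIP1 from 392 and 420.4 CPM to 304 and 298 CPM (-0.48 ± 0.10, adjusted p = 0.00265). RELA went from 114 and 124 CPM to 154 and 183 CPM (0.46 ± 0.09, adjusted p = 0.00244). None of these 4 genes had overlapping libraries. NFKB2 (0.26 ± 0.10, adjusted p = 0.0537, 0.00177 with the block) and NFKBIE (0.33 ± 0.26, adjusted p = 0.356, 0.00325 with the block) were higher with the block, and NFKB2 also in DESeq2 (adjusted p = 0.0392) and in the main fit without the second sorafenib library (adjusted p = 0.0498). The blocked fit called 26.6% of all genes higher and 27.8% lower.

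Set against DMSO, with which MMS alone was also compared, the combination lowered 4 genes at 8 h (11.8% of all genes were lower) and raised RELA (12.5% were higher). TNFAIP3 had its lowest level of the study there, 24.3 and 30.9 CPM against 69.3 and 76.6 CPM with DMSO, a 2.66-fold decrease (log2 change -1.41 ± 0.13, edgeR adjusted p = 1.69e-05). NFKBIA, BIRC3 and TNIP1 were the other 3, and RELB (0.44 ± 0.15, adjusted p = 0.0604, 0.00255 with the block) and NFKB2 (0.24 ± 0.10, 0.00558 with the block) were higher with the block, as 20.5% of all genes were (19.0% were lower). Without the second DMSO library RELB passed in the main fit as well (0.62, adjusted p = 0.0414). NFKB1 (-0.18 ± 0.08, adjusted p = 0.101) was lower in DESeq2 (adjusted p = 0.0481) and, in the main fit, without the second combination library (adjusted p = 0.0285). At 24 h NFKBIA, BIRC3, TNIP1 and TNFAIP3 were lower (17.2% of all genes) and RELA was higher (16.2%). TNFAIP3 at 24 h (-0.40 ± 0.13, adjusted p = 0.0264) was lost without the first DMSO library (-0.27, adjusted p = 0.193), the first combination library (-0.31, adjusted p = 0.19) or the second (-0.46, adjusted p = 0.0662). ICAM1, at 408 and 358 CPM with the combination and 408 and 359 CPM with DMSO at 24 h, overlapped and did not pass (adjusted p = 0.763). NFKB2 (0.23 ± 0.10, adjusted p = 0.1, 0.00659 with the block) and NFKBIE (0.25 ± 0.26, adjusted p = 0.501, 0.0158 with the block) were higher at 24 h with the block alone, which called 24.7% of all genes higher and 25.8% lower.

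Whether sorafenib altered the MMS response was tested by the interaction of the 2 agents, and 0 of the 10 genes passed at 8 h or 24 h in edgeR, in DESeq2 or with the block, where 0% of all genes passed in edgeR at either time, and 0.0502% at 8 h and 0.0287% at 24 h with the block. The interaction also holds the 12 h longer that the combination spent in sorafenib. It cannot tell that apart from an altered response to MMS. At an unadjusted p under 0.05, for which no share of all genes is given, there was 1 gene at 8 h and 0 at 24 h. The former was NFKBIA, whose response to MMS differed by 0.29 ± 0.12 on the log2 scale between cells with and without sorafenib (unadjusted p = 0.0383, edgeR adjusted p = 1).

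Sorafenib alone left 0 of the 10 genes past the threshold at 8 h and at 24 h in edgeR, where 0.394% and 0.817% of all genes passed. At an unadjusted p under 0.05 there was 1 gene at 8 h and there were 2 at 24 h, all lower, and no share of all genes is given at that cut. DESeq2 called 0 at 8 h and 1, TNIP1, at 24 h (1.32% of its genes were lower). The blocked fit called 1 lower at each time, with 2.90% and 3.81% of all genes lower. TNFAIP3 was the gene at 8 h, with 69.3 and 76.6 CPM in DMSO and 54.5 and 55.4 CPM in sorafenib (-0.39 ± 0.12, edgeR adjusted p = 0.325, 0.0407 with the block). At 24 h TNFAIP3 had 62.6 and 52.9 CPM and 49.8 and 41.9 CPM (-0.34 ± 0.13, adjusted p = 0.366), and TNIP1 461 and 559 CPM and 392 and 420.4 CPM (-0.34 ± 0.10, adjusted p = 0.2, 0.00546 with the block). All 3 pairs of groups were apart, for which no share of all genes is given. The sorafenib effect at 24 h minus that at 8 h passed for 0 of the 10 genes in edgeR and in DESeq2, with 0 at an unadjusted p under 0.05, and for 0% of all genes.

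On top of MMS, sorafenib left 0 of the 10 past the threshold in edgeR at 8 h (0.624% of all genes passed) and 0 at 24 h (0.122%). The cells of the combination had been given sorafenib 12 h before MMS. At an unadjusted p under 0.05 there were 3 higher and 1 lower at 8 h and 1 higher and 1 lower at 24 h. The shares just given are for adjusted p, and none is given for this looser cut. DESeq2 called 1 higher and 1 lower at 8 h (1.19% and 2.51% of its genes), and 0 at 24 h. With the block 4 were higher (4.12% of all genes) and 1 lower (5.38%) at 8 h, and 1 was higher (0.774%) at 24 h. At 8 h NFKBIA went from 46.2 and 47.2 CPM with MMS to 69 and 61 CPM with the combination (0.43 ± 0.09, edgeR adjusted p = 0.0587, 0.00364 with the block). TNFAIP3 went the other way, from 39.5 and 39.4 CPM to 24.3 and 30.9 CPM (-0.56 ± 0.13, adjusted p = 0.0888, 0.00603 with the block). ICAM1 went from 232 and 230.4 CPM to 339 and 289 CPM (0.39 ± 0.12, adjusted p = 0.165, 0.00119 with the block) and BIRC3 from 71 and 75.3 CPM to 88.3 and 110.3 CPM (0.39 ± 0.13, adjusted p = 0.19, 0.0309 with the block). The libraries of these 4 genes were apart, for which no share of all genes is given. NFKBIE was the remaining call of the blocked fit (0.37 ± 0.27, adjusted p = 0.606, 0.0103 with the block). NFKBIA and TNFAIP3 passed in the main fit as well without the second combination library (adjusted p = 0.0199 and 0.0157). At 24 h ICAM1 passed only with the block, at 323 and 292 CPM and 408 and 358 CPM (0.32 ± 0.12, adjusted p = 0.759, 0.0132 with the block).

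Averaged over its 4 settings (with and without MMS, 8 h and 24 h), the sorafenib effect of 8 against 8 libraries passed for 3 genes. In the settings with MMS the cells given sorafenib had spent 12 h longer in it than in those without MMS. TNFAIP3 fell by 0.39 on the log2 scale (SE 0.06, edgeR adjusted p = 0.00269), with 3.28% of all genes lower. ICAM1 rose by 0.23 ± 0.06 (adjusted p = 0.0335) and NFKBIA by 0.18 ± 0.04 (adjusted p = 0.0248), with 3.20% of all genes higher. The TNFAIP3 libraries with sorafenib lay below those without it in 4 of the 4 settings with no overlap, which 1.88% of the genes tested also did, and TNFAIP3 was lower in 8 of 8 pairs of libraries with the same title beginning, with log2 ratios of CPM from -0.70 to -0.22, as 4.55% of the genes tested were. ICAM1 was higher in 8 of 8 such pairs, as 5.44% of genes were, and NFKBIA in 7 of 8, where 14.6% of genes were higher in at least 7. Either gene lay higher without overlap in 3 of the 4 settings, as 6.93% of genes did in at least 3 and 2.17% in 4. NFKB1, which was not called (0.07 ± 0.04, adjusted p = 0.354), had the same counts as NFKBIA. TNIP1 was lower in 6 of 8 pairs (-0.16 ± 0.05), where 22.0% of genes were lower in at least 6, and passed with the block (adjusted p = 0.0806 and 0.00347), in DESeq2 (0.0179) or without the first DMSO library at 24 h (0.0271). The blocked fit called 8.25% of all genes lower and 9.18% higher.

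The TNFAIP3 call remained when any 1 of the 16 libraries was left out. The NFKBIA call was lost without any 1 of 12 of them (adjusted p from 0.0509 to 0.0844) and the ICAM1 call without any 1 of 10 (0.0682 to 0.125). For NFKBIA the other 4, without which it held, were the second libraries of DMSO and MMS at 24 h and of the combination at 8 h and 24 h. For ICAM1 the other 6 were the first libraries of DMSO and MMS at 24 h and the second libraries of sorafenib and of the combination at 8 h and 24 h.

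**Figure D3:**
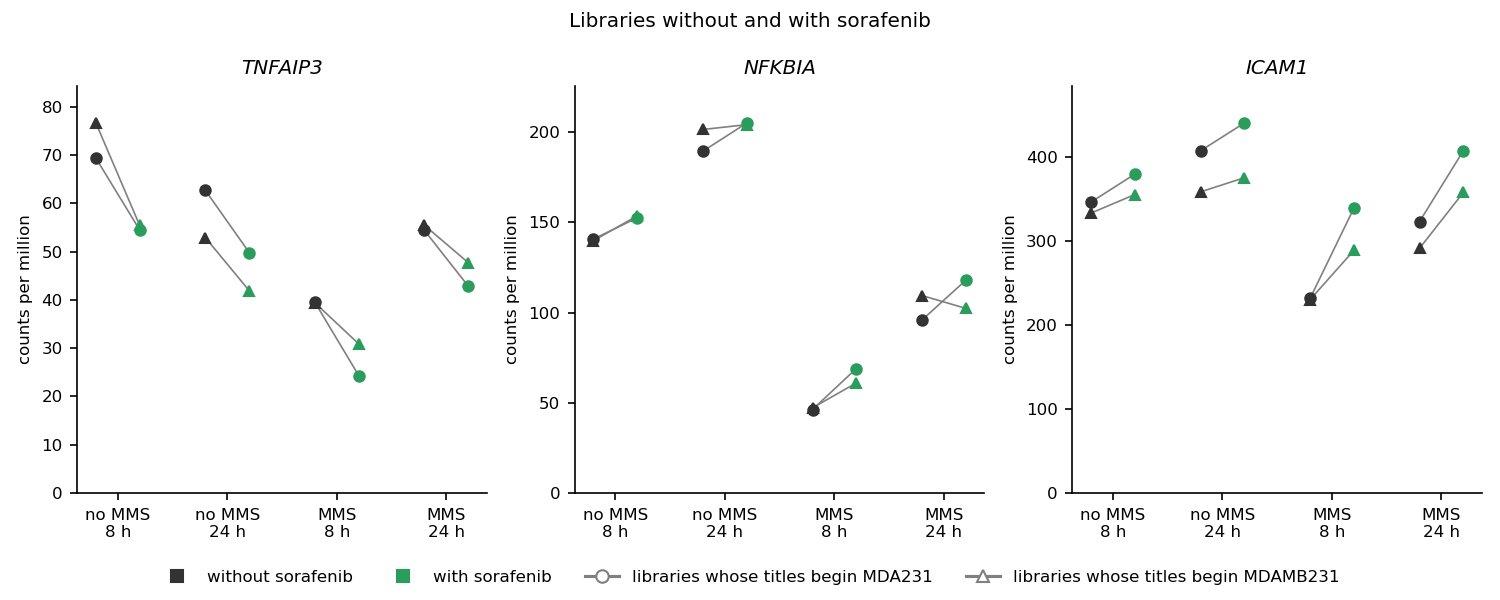
TNFAIP3, NFKBIA and ICAM1 in CPM (vertical axes, from 0) without sorafenib (black) and with it (green) in the 4 settings (horizontal axes), with lines joining libraries whose titles begin alike. All 8 TNFAIP3 lines go down and all 8 ICAM1 lines go up, while 7 of 8 NFKBIA lines go up.

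The rest of the pathway was described by 4 lists of genes. Their counts with MMS stand beside 14.5% of all genes higher and 12.0% lower at 8 h and 15.2% and 16.3% at 24 h (22.4% and 20.9%, and 23.0% and 25.2%, with the block). Of 7 other Rel and IkB family genes, MMS raised 3 and lowered 1 at 8 h and raised 2 and lowered 1 at 24 h (3 and 2 with the block at 24 h). Their median log2 change was 0.19 and 0.05. NFKBIB, the gene of the inhibitor IkB-beta, rose by 0.82 ± 0.11 at 8 h (edgeR adjusted p = 0.00018) and 0.96 ± 0.11 at 24 h (adjusted p = 0.000101), opposite to NFKBIA. BCL3, a nuclear IkB protein that partners p50 and p52, changed by -1.61 ± 0.19 at 8 h (adjusted p = 6.86e-05) and -1.11 ± 0.18 at 24 h (adjusted p = 0.000719). NKIRAS2, which encodes a Ras-like protein that binds IkB, rose by 0.50 ± 0.08 at 8 h (adjusted p = 0.000567). The other 2 calls, of NFKBIZ at 8 h and NKIRAS1 at 24 h, were lost under 3 and 5 of 9 alternatives, among them without any 1 of the first DMSO library and the 2 MMS libraries of their times (adjusted p up to 0.163 and 0.175), which left 2 genes higher at 8 h and 1 at 24 h. Sorafenib, over its 8 against 8 libraries, changed 0 of the 7 in edgeR and in DESeq2, with 0 at an unadjusted p under 0.05.

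Of 26 genes of the IKK complex and the kinases, receptors and adaptors upstream of it, 4 rose and 3 fell with MMS at 8 h, and 2 rose and 4 fell at 24 h. With the block these were 5 and 6 at 8 h, and 9 and 7 at 24 h. The 8 h counts were near the shares of all genes given above, 14.5% higher and 12.0% lower. IKBKE, an IKK-related kinase, changed by -1.37 ± 0.15 at 8 h (edgeR adjusted p = 5.59e-05) and -1.26 ± 0.15 at 24 h (adjusted p = 0.000142). IKBKB, the catalytic subunit of the canonical kinase, changed by -0.69 ± 0.09 at 24 h (adjusted p = 0.000246), and the TNF receptor gene TNFRSF1A by -0.47 ± 0.08 (adjusted p = 0.00107). At 8 h TNFRSF1A changed by -0.28 ± 0.08 (adjusted p = 0.0217), a call lost under 5 of 9 alternatives. MAP3K14, the NIK kinase of the non-canonical arm, rose at 24 h by 0.88 ± 0.17 (adjusted p = 0.00242). It also rose at 8 h by 0.73 ± 0.17 (adjusted p = 0.00695), a call lost under 1 of 9 alternatives. The ubiquitin ligase gene TRAF6 rose at 8 h by 0.84 ± 0.14 (adjusted p = 0.000669). IKBKG (NEMO, the regulatory subunit) rose at 24 h by 1.04 ± 0.18 (adjusted p = 0.00115), and is uncertain because a near-identical pseudogene can share its reads. At 8 h the counts depended on single libraries: 1 rose without the first DMSO library, and 2 rose and 1 fell without the second MMS library. The 24 h count of rises was 6 without the second DMSO library. Sorafenib, over its 8 against 8 libraries, raised 1 of the 26, IKBKE (0.29 ± 0.07, edgeR adjusted p = 0.0362), a call lost without any 1 of 12 libraries. The count of 1 was near the share of all genes that were higher, 3.20%. With the block 2 of the 26 were higher, as 9.18% of all genes were.

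Among 17 other ubiquitin editors and feedback regulators, 5 rose and 2 fell with MMS at 8 h, and 3 rose and 4 fell at 24 h. Of all genes 14.5% were higher and 12.0% lower at 8 h, and 15.2% and 16.3% at 24 h. The 2 that fell at 8 h and the 3 that rose at 24 h were near these shares. With the block 6 rose and 2 fell at 8 h (22.4% and 20.9% of all genes), and 4 rose and 6 fell at 24 h (23.0% and 25.2%). RBCK1 (HOIL-1, a subunit of the linear ubiquitin ligase) rose by 0.72 ± 0.10 at 8 h (edgeR adjusted p = 0.000312) and 0.54 ± 0.10 at 24 h (adjusted p = 0.00228), and TANK, an adaptor of IKK-related kinases, by 0.62 ± 0.11 at 8 h (adjusted p = 0.00158). ZC3H12A (regnase-1, an RNase that degrades cytokine messages) changed by -0.82 ± 0.18 at 24 h (adjusted p = 0.00495). At 8 h it changed by -0.60 ± 0.18 (adjusted p = 0.0268), a call lost under 3 of 9 alternatives. At 8 h, 2 genes rose without the first DMSO library and 3 without any other library, and 1 fell without the first DMSO or the first MMS library and 0 without the second MMS library. At 24 h, 1 rose without the first DMSO library or either MMS library, and 1 fell without the first MMS library and 2 without the second DMSO library. Sorafenib changed 0 of the 17 in edgeR and in DESeq2, while 1 was lower at an unadjusted p under 0.05 and 1 fell with the block. The blocked fit called 8.25% of all genes lower with sorafenib.

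Of 27 other known NF-kB target genes 24 passed the filter on low counts, and of these 3 rose and 9 fell at 8 h (8 and 12 with the block) and 2 rose and 12 fell at 24 h (2 and 18 with the block), beside 14.5% of all genes higher and 12.0% lower at 8 h and 15.2% and 16.3% at 24 h. Their median log2 change was -0.38 at 8 h and -0.86 at 24 h. At 8 h the interferon regulatory factor gene IRF1 changed by -1.16 ± 0.10 (edgeR adjusted p = 8.56e-06), the cytokine gene CSF2 (GM-CSF) by -1.09 ± 0.12 (adjusted p = 3.9e-05) and the survival gene BCL2L1 by -0.57 ± 0.08 (adjusted p = 0.000341). At 24 h the death ligand gene TNFSF10 changed by -2.22 ± 0.25 (adjusted p = 9.26e-05), the prostaglandin synthase gene PTGES by -1.87 ± 0.22 (adjusted p = 0.000136) and the survival gene BCL2A1 by -1.82 ± 0.27 (adjusted p = 0.000441). GCH1, which starts tetrahydrobiopterin synthesis, rose at 24 h by 0.68 ± 0.14 (adjusted p = 0.00399). It also rose at 8 h by 0.59 ± 0.14 (adjusted p = 0.00939), a call lost under 2 of 9 alternatives. The chemokine gene IL8 (CXCL8) rose at 8 h by 1.34 ± 0.23 (adjusted p = 0.00116). IL6 also rose at 8 h, by 0.78 ± 0.20 (adjusted p = 0.0124), a call lost without the first DMSO or the second MMS library (adjusted p = 0.128 and 0.14). At 24 h both were lower, IL8 with a log2 change of -0.99 ± 0.23 (adjusted p = 0.00697) and IL6 with one of -0.77 ± 0.20 (adjusted p = 0.0117), and the MMS effect at 24 h minus that at 8 h was -2.32 ± 0.33 for IL8 (adjusted p = 0.0015) and -1.55 ± 0.28 for IL6 (adjusted p = 0.00642). The 24 h calls, looked up after the 8 h values were seen, were lost without the first DMSO or second MMS library for IL8 (adjusted p from 0.0625 to 0.0645) and without the second DMSO or first MMS library for IL6 (0.0544 to 0.117). Without the first DMSO library at 8 h, 1 of the 24 rose. In the MMS effect at 24 h minus that at 8 h, 2 of the 24 were called higher (CSF2 and IRF1) and 3 lower (IL8, IL6 and SOD2). Of all 13948 genes, 3.53% were called higher there and 1273 genes in either direction. With the block 4 of the 24 were higher and 11 lower, and 3562 of all genes were called. In DESeq2 2 were higher and 8 lower, and 1659 of all genes were called. The list median was -0.75, against -0.03 for all genes.

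Sorafenib raised 2 and lowered 4 of the same 24 genes over its 8 against 8 libraries (4 and 9 with the block; 3.20% of all genes were higher and 3.28% lower, and 9.18% and 8.25% with the block; 7 lower with no filter on low counts). BCL2A1, a low-level gene of at most 7.23 CPM, changed by -1.67 ± 0.14 (edgeR adjusted p = 2.92e-05), the immediate early gene IER3 by -0.88 ± 0.10 (adjusted p = 0.00022) and CSF2 by -0.51 ± 0.06 (adjusted p = 0.000251). SOD2, the mitochondrial superoxide dismutase gene, rose by 0.29 ± 0.05 (adjusted p = 0.00608), and NINJ1, the gene of a membrane protein, by 0.36 ± 0.08 (adjusted p = 0.0195), a call lost without any 1 of 5 libraries (the first of sorafenib at 8 h and 24 h and of the combination at 24 h, the second of DMSO and MMS at 8 h; adjusted p from 0.0521 to 0.0592). The list medians were -0.01 here and 0.00 for all genes.

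Likeness to NFKBIA was measured as Pearson's r over the 8 group means of log2(CPM + 0.5), among 9594 genes with a mean of at least 10 CPM. The 5 genes most like it were CRTAP (0.997), ATP1B1 (0.995), CDCA3 (0.993), ANP32E (0.993) and CARD10 (0.992). BIRC3 ranked 17 with 0.99, ICAM1 629 with 0.89, TNIP1 722 with 0.88 and TNFAIP3 2272 with 0.63, while RELA was at -0.89. All these values share the same libraries and mostly follow the split into groups with and without MMS, and they describe the 8 groups with no test.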

How the data were processed

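The 16 files hold raw read counts per gene, deposited by the authors. Per the submitters' processing notes they used CASAVA 1.8.2, TopHat2 2.0.8b, HTSeq and the build hg19; the HTSeq version and mode, the annotation and the strand setting are not given in the sources used here. Each file has 23228 gene rows and 5 counter rows. The latter entered neither totals nor tests (reads in no gene 6.88 to 7.94%, ambiguous 1.03 to 1.18%, with several alignments 29.5 to 31.5%). The files hold 0 value columns of no sample.

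CPM were computed from the summed gene rows. The test was edgeR's (version 4.0.16, R 4.3.3; TMM factors of 0.954 to 1.06, filterByExpr, 13948 genes, 1 mean per group over all 16 libraries, quasi-likelihood tests, Benjamini-Hochberg adjusted p under 0.05) in 16 comparisons, after a test of the script on simulated data. What the p-values measure is the spread within groups of 2 libraries, which the design text describes as separate experiments. In the main fit this spread includes the shared difference between the 2 title beginnings. The common coefficient of variation that edgeR estimated between libraries was 0.136 in the main fit and 0.0632 with the block. Replicates of a group differed by more than sampling noise (chi-square per gene 14.3 to 19.98).

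Titles begin in 2 ways, once per group. Deviations from group means correlated between libraries that begin alike in all 28 pairs of groups (0.489 to 0.707, median 0.638), so the beginnings were taken to pair the libraries, before calls were compared. Alternatives tried were DESeq2 1.42.0, RLE factors, the block, no filter, only the libraries compared and each library left out. Windows of 300 bases came from RefSeq, GRCh38.p14.

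The genes and lists were chosen with earlier results of these data known. No share of all genes is given for counts at an unadjusted p under 0.05. None is given either for libraries that were apart in a single comparison, so these counts only describe the genes. Of each list the text names at most 3 genes per direction, those with the smallest p past the threshold and a mean of at least 1 CPM, and gives values mainly for those called in each alternative run.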

Additional observations from a re-analysis of the deposited data

Results flagged for a closer look

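The response of 3 genes to MMS differed between 24 h and 8 h by a test of the difference itself, the effect at 24 h minus the effect at 8 h in edgeR. The values were 1.05 for BIRC3, 0.72 for TNFAIP3 and 0.57 for NFKBIA on the log2 scale, with adjusted p of 0.00411, 0.0253 and 0.0145. IL8 and IL6, known NF-kB targets outside the 10 genes, differed the other way, by -2.32 (adjusted p = 0.0015) and -1.55 (adjusted p = 0.00642). Of the 24 other known NF-kB target genes tested, 2 were called higher and 3 lower in this difference. Their median was -0.75, against -0.03 for all genes. With the block 4 were higher and 11 lower, and in DESeq2 2 were higher and 8 lower. Over all genes and both directions, edgeR, the blocked fit and DESeq2 called 1273, 3562 and 1659. CSF2 and IRF1 passed in the same direction as BIRC3, TNFAIP3 and NFKBIA, and SOD2 passed in the direction of IL8 and IL6. Each group holds 2 libraries, so that no group was tested for a library far from the others.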

How the results depend on the processing

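Of 1229 values of single genes under the alternatives, 1057 kept their direction and their side of the threshold, 131 were no longer past it, 38 were newly past it and 3 changed sign. All 3 were NFKBIE at 24 h: its log2 change was -0.01 with MMS against DMSO without the first DMSO library, and -0.01 with the combination against DMSO without that library or without the second combination library, the other end of both ranges being 0.58 without the second DMSO library. RLE factors moved the median of all genes by at most 0.026. The cause of the changes below was not tested. Counts are of the 10 genes. Shares of all genes with the block stand beside the results above. No such share is given for RLE factors, no filter, the libraries compared alone or 1 library left out. With the replicate block, 2 were higher with MMS at 8 h and 2 at 24 h, 1 was lower with sorafenib at 8 h and 1 at 24 h, 4 were higher and 1 lower with the combination against MMS at 8 h and 1 higher at 24 h. The block gave 3 higher for the combination against sorafenib at 24 h, 3 against DMSO at 8 h and 3 at 24 h, 2 higher and 2 lower for DMSO over time, and 2 lower for sorafenib over 8 against 8 libraries. It changed no call of these genes beyond those and the ones given beside the results. DESeq2 called 1 lower with sorafenib at 24 h, 1 higher and 1 lower for the combination against MMS at 8 h, 2 higher for the combination against sorafenib at 24 h, and 2 lower for sorafenib over 8 against 8 libraries. Over all genes and both directions DESeq2 called 5088 and 1131 in the last 2 of these comparisons. For the combination against sorafenib at 8 h, RLE factors, no filter and the libraries compared alone gave 1 higher each, and the last 3 lower. For DMSO over time the libraries compared alone gave 0 higher and 0 lower, and no filter 0 lower. No filter gave 1 lower for the combination against MMS at 8 h. With 1 library left out, the counts of genes higher ran from 0 to 0 for DMSO over time, 1 to 3 for the MMS effect at 24 h minus 8 h, 0 to 2 for sorafenib over 8 against 8, 1 to 2 for the combination against DMSO at 8 h, 0 to 1 against MMS at 8 h, 1 to 2 against sorafenib at 24 h and 0 to 1 against sorafenib at 8 h. The counts of genes lower ran from 0 to 0 for DMSO over time, 1 to 2 for sorafenib over 8 against 8, 0 to 1 for the combination against MMS at 8 h and 3 to 5 against sorafenib at 8 h. A group left with 1 library was taken to vary like the others. The lowest count of any of the 10 genes in a library was 408, for TNFAIP3 in the first combination library at 8 h.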
